A study of Rattus norvegicus with 156 samples.

Results

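The genes of the extracellular matrix and of the proteases that cut it were followed in a rat model of neuropathic pain. The list named 38 genes, and all probe sets annotated to them on the 3 expression arrays were taken. Of the 38 genes, 36 had at least 1 probe set (95 probe sets in all), out of 10969 genes and 26379 probe sets on the arrays, and Thbs1 and Thbs2 had none. The 36 fell into 8 collagens, 14 glycoproteins, 7 proteoglycans, and 7 proteases and protease inhibitors.

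The rats belonged to 5 treatments. Naive rats had no surgery and received saline vehicle, and a naive group received gabapentin. Sham rats had the spinal nerves exposed but not tied and received vehicle. Rats with spinal nerve ligation had the L5 and L6 spinal nerves ligated (tied off) and received vehicle or gabapentin, and only ligated rats whose paw withdrawal threshold had fallen on the operated side were kept. Gabapentin, an anticonvulsant used for nerve pain, was given at 100 mg/kg once a day by intraperitoneal injection for 7 days, and vehicle rats had saline for the same time. Tissue was taken 19 to 21 days after surgery from whole brain, spinal cord split by side, mid-thigh sciatic nerve and the L4, L5 and L6 dorsal root ganglia of the operated and the opposite side. RNA of 4 to 6 rats was pooled, and a treatment gave at most 1 pool for each tissue and side. In all, 52 pools of 11 compartments were measured on 156 arrays, and 8 compartments had a pool of every treatment. Pools of the naive opposite L6 ganglion, the naive gabapentin opposite L5 ganglion and the ligated vehicle opposite nerve were not analysed here. No source used here gives the strain, sex or age of the rats. In each compartment the 2 ligated pools (vehicle and gabapentin) were compared with the 3 unligated pools (naive, naive with gabapentin, sham), or with 2 in the opposite L5 and L6 ganglia, and p-values measure the spread between these pools.

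The extracellular matrix of a nerve is built from fibrillar collagens, a basement membrane of type IV collagen, laminins and nidogen around each Schwann cell and satellite cell, and glycoproteins and proteoglycans that bind cells, growth factors and collagen fibrils. Matrix metalloproteinases cut these proteins, and the tissue inhibitors of metalloproteinases hold them in check. Fibroblasts, Schwann cells, satellite cells and vessel cells make most of this matrix in the peripheral nervous system, while lecticans such as brevican and neurocan are known from the matrix of the brain and spinal cord.

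Signals are array units after quantile normalization within each compartment, and a signal of 1 gene cannot be set against that of another. A log2 change is the mean log2 of the ligated minus that of the unligated pools, after adding a pseudocount of 5.8 (array A), 4.5 (array B) or 6.2 (array C) to the signal, so folds of low genes are understated. Where a gene has several probe sets, the one with the highest mean signal stands for it. A gene was called where limma's p-value, adjusted over all probe sets tested in that comparison, was below 0.05. Probe sets entered the test if 2 or more pools exceeded the 40th percentile of their own arrays. Groups are said to stand apart where their pools do not overlap. With 5 pools in random order, 2 stand apart from 3 in 20% of cases. A call and groups apart rest on the same pools, so groups apart are no further support for a call. Before normalization, array medians lay between 13 and 62.2 (A), 8.1 and 47.2 (B), and 14.5 and 53.3 (C).

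In the L5 ganglion, whose spinal nerve was tied, 12 matrix genes rose and most did not pass the test. Of 34 members tested, 12 were called higher and 2 lower, where 6.79% of all genes tested were called higher and 9.46% lower. The 12 include the glycoprotein gene Postn, which entered the test through its ligated pools alone. Of the 8 collagens 5 rose and none fell (Col5a2, Col12a1, Col3a1, Col4a1 and Col1a1), 5 of 14 glycoproteins rose and 1 fell, 1 of 6 proteoglycans rose and 1 fell, and 1 of 6 proteases and inhibitors rose. The median log2 change was 0.51 over the 34 members and -0.01 over all genes tested. The members were chosen with earlier results of these data known, so such contrasts with all genes, here and below, are no independent test. Members above the filter in every pool rose by 1.44-fold (Col1a1) to 3.09-fold (Mgp). Ncan and Mmp9 were below the filter in this ganglion. The ratio of 3' to 5' control signal of Gapdh, a sign of RNA quality, was 1.01 and 1.05 in ligated and 1.13 to 1.26 in unligated L5 pools, with no overlap, and its part in the result was not tested.

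**Figure D1:**
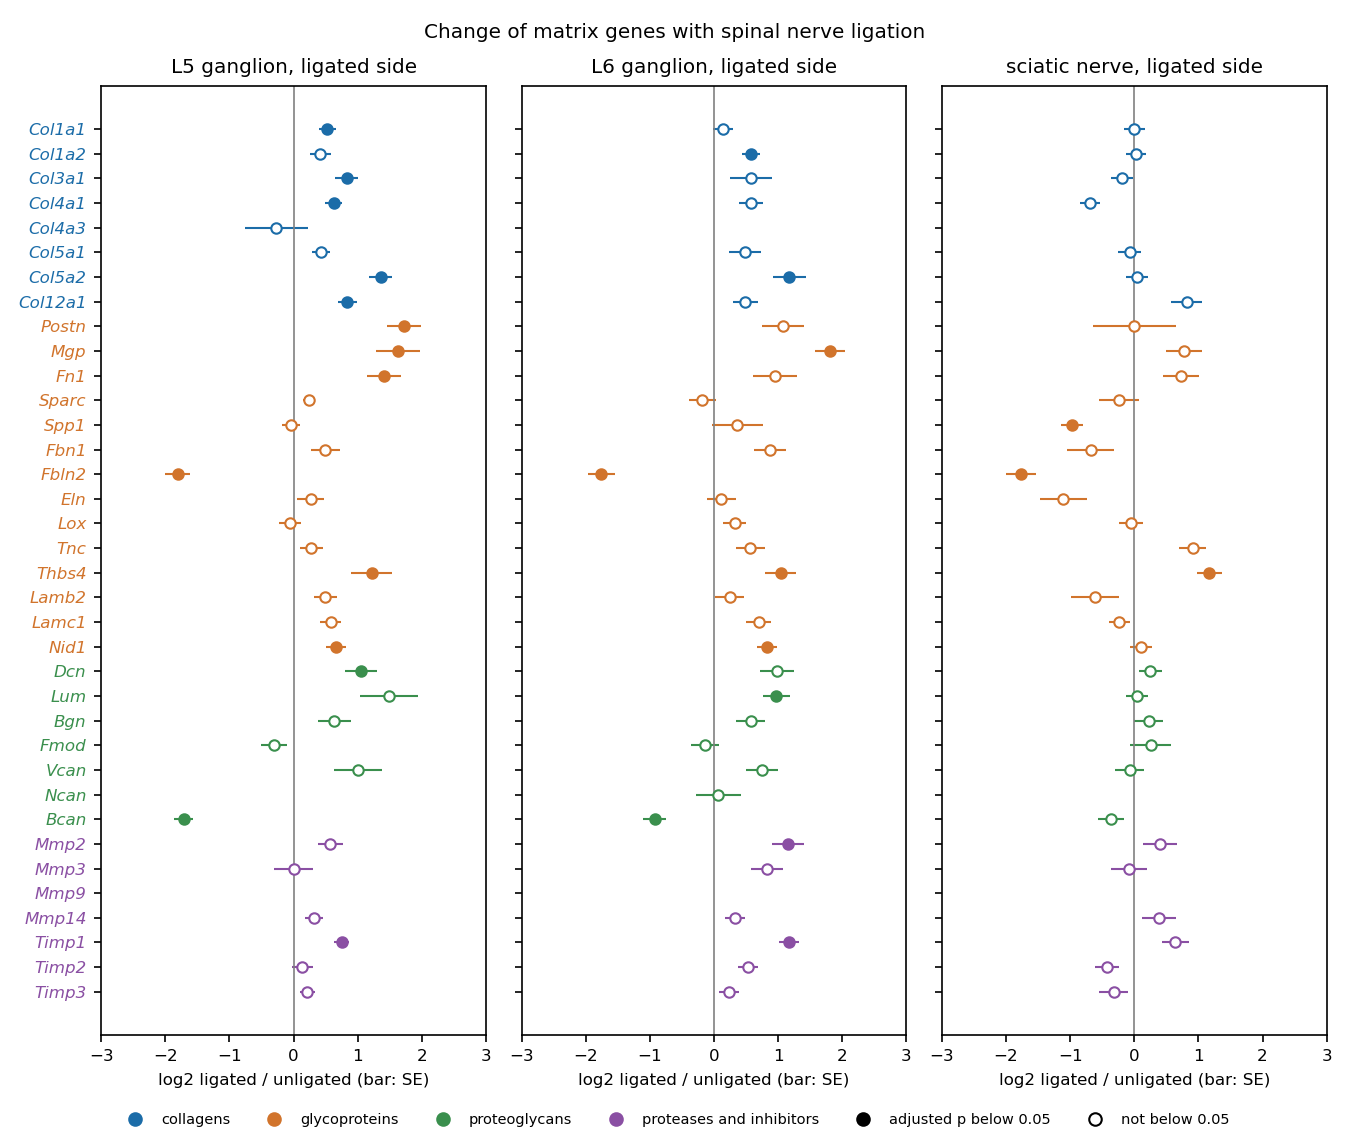
Log2 change of each matrix gene with ligation in the L5 ganglion, the L6 ganglion and the sciatic nerve of the operated side (2 ligated against 3 unligated pools, bars are the SE). Filled points passed the adjusted threshold of 0.05: 14 in L5, 10 in L6 and 3 in the nerve, and genes below the filter have no point.

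Col5a2, a chain of type V collagen that regulates fibril diameter, had signals of 217 in naive, 211 in naive gabapentin and 299 in sham L5 ganglia. After ligation its signals were 696 with vehicle and 556 with gabapentin, so that the groups did not overlap. The log2 change was 1.36 (SE 0.18, adjusted p = 0.00474). Col12a1, which encodes a collagen on the surface of fibrils, lay between 37.6 and 39.3 in the 3 unligated pools and at 80.5 and 67.0 in the ligated pools. Its log2 change was 0.84 (SE 0.15, adjusted p = 0.0121).

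Col3a1, the fibrillar collagen of soft tissue, gave 1181, 876 and 1155 in naive, naive gabapentin and sham pools and 2189 and 1631 after ligation with vehicle and with gabapentin. Its groups stood apart, the log2 change was 0.83 (SE 0.17, adjusted p = 0.0212), and 3 of its 4 probe sets were called higher. Col4a1, a chain of the collagen network of basement membranes, gave 492, 409 and 377 without and 639 and 671 with ligation, a log2 change of 0.62 (SE 0.14, adjusted p = 0.0227). Only 1 of the 4 Col4a1 probe sets was called, and without normalization its change turned to -0.22 (adjusted p = 0.566). Col1a1, the main chain of type I collagen, gave 2189, 1846 and 2264 without and 3338 and 2722 with ligation, a log2 change of 0.53 (SE 0.13, adjusted p = 0.0368). It lost the call under 8 of 12 other settings. The other chain of type I collagen, Col1a2, changed by 0.42 (adjusted p = 0.133), Col5a1 by 0.43 (adjusted p = 0.0868) and Col4a3, found in specialised basement membranes, by -0.27 (adjusted p = 0.749).

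Among the glycoproteins, Postn was called higher from a level below the filter. It encodes periostin, a secreted protein of collagen-rich tissue under mechanical load or repair. Postn signals were 7.78 in naive, 9.34 in naive gabapentin and 9.52 in sham ganglia, all below the 40th percentile of their arrays (22.7 to 22.8). They were 34.0 after ligation with vehicle and 52.8 after ligation with gabapentin, which is at least 1.69-fold higher when each unligated pool is set to that percentile. The fit gave adjusted p = 0.00702. Postn thus passed the filter through the ligated pools alone, and with no filter it was still called. Mgp, matrix Gla protein, an inhibitor of tissue calcification, gave 684, 668 and 895 without ligation and 3622 and 1465 after it. The log2 change of Mgp was 1.63 (SE 0.34, adjusted p = 0.0206), and the ligated pool given vehicle was far above the one given gabapentin.

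Fn1, fibronectin, which links cells to the matrix through integrins, gave 233, 225 and 318 without ligation and 935 and 509 with it. The log2 change was 1.41 (SE 0.26, adjusted p = 0.0139). Thbs4, a secreted thrombospondin, gave 161, 90.6 and 202 without ligation and 412 and 284 with it, a log2 change of 1.22 (SE 0.32, adjusted p = 0.0417). Nid1, nidogen, which joins laminin to type IV collagen, gave 214, 202 and 249 against 401 and 310, a log2 change of 0.66 (SE 0.15, adjusted p = 0.0298). In each of these 3 genes every ligated pool exceeded every unligated pool.

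Fbln2 went the other way. It encodes fibulin 2, which binds fibronectin, nidogen and elastic fibres. Its signals were 675 in naive, 548 in naive gabapentin and 532 in sham L5 ganglia, and 131 and 202 after ligation with vehicle and with gabapentin. The log2 change was -1.81 (SE 0.20, adjusted p = 0.00245), with no overlap between the groups. The other 8 glycoproteins were not called: Lamc1, a laminin chain, changed by 0.58 (adjusted p = 0.0555), Lamb2 by 0.50, Fbn1 by 0.50, Tnc by 0.28, Eln by 0.27, Sparc by 0.24, Spp1 by -0.04 and Lox by -0.05. Lox, which cross-links collagen, was not the same on all its probe sets, since 2 of 4 were called higher and the highest change was 1.40.

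Of the proteoglycans, Dcn rose and Bcan fell. Dcn, decorin, which coats collagen fibrils and binds transforming growth factor beta, gave 983, 1118 and 1206 without ligation and 3128 and 1666 with it. Its log2 change was 1.05 (SE 0.24, adjusted p = 0.0286), and 3 of its 5 probe sets were called. Bcan, brevican, a proteoglycan of the perineuronal matrix, gave 143, 136 and 155 without ligation and 35.3 and 45.4 with it. The log2 change of Bcan was -1.71 (SE 0.15, adjusted p = 0.00132), the lowest adjusted p of any member in this ganglion.

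Lum, lumican, another small proteoglycan of collagen fibrils, gave 130, 234 and 196 without and 928 and 292 with ligation. Its log2 change of 1.49 was among the highest but carried an SE of 0.45 and an adjusted p of 0.065, and the vehicle pool was far above the gabapentin pool. Vcan, versican, changed by 1.00 (SE 0.38, adjusted p = 0.117) and passed the filter through the ligated pools alone. Bgn, biglycan, changed by 0.63 (adjusted p = 0.141) and Fmod, fibromodulin, by -0.30 (adjusted p = 0.354).

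In the protease group the inhibitor Timp1 rose and no protease was called. Timp1 gave 292, 275 and 322 without ligation and 482 and 525 with it, a log2 change of 0.75 (SE 0.12, adjusted p = 0.00796), and all 3 of its probe sets were called. Mmp2, a gelatinase, changed by 0.58 (adjusted p = 0.0887), Mmp14, the membrane-bound activator of Mmp2, by 0.32 (adjusted p = 0.167), Timp3 by 0.22, Timp2 by 0.14 and Mmp3, a stromelysin, by 0.01. Mmp9 signals were 13.2, 3.80 and 7.32 without and 4.66 and 48.7 with ligation, so that 1 of 5 pools rose above the filter.

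The count of called members in L5 depended on single pools. It was 14 with all 5 pools, 9 without the naive pool, 6 without the naive gabapentin pool, 11 without the sham pool, 5 without the ligated vehicle pool and 12 without the ligated gabapentin pool. With arrays scaled to a common median in place of quantiles, 6 members were called higher and 2 lower, and without normalization 9 and 2. Of all probe sets called in L5, 43.2% were higher with quantiles, 24.3% with a common median and 15.2% without normalization. The L5 call was lost under 8 of 12 other settings for Col1a1 and Col4a1, and under 6 for Thbs4, Nid1 and Dcn. It was lost under 3 for Col3a1, 2 for Mgp and Fn1, and 1 for Col12a1 and Timp1. Bcan, Fbln2 and Col5a2 were called under all 12 other settings. Postn was called under the 10 in which it could be tested, since it failed the filter when either ligated pool was left out.

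**Figure D2:**
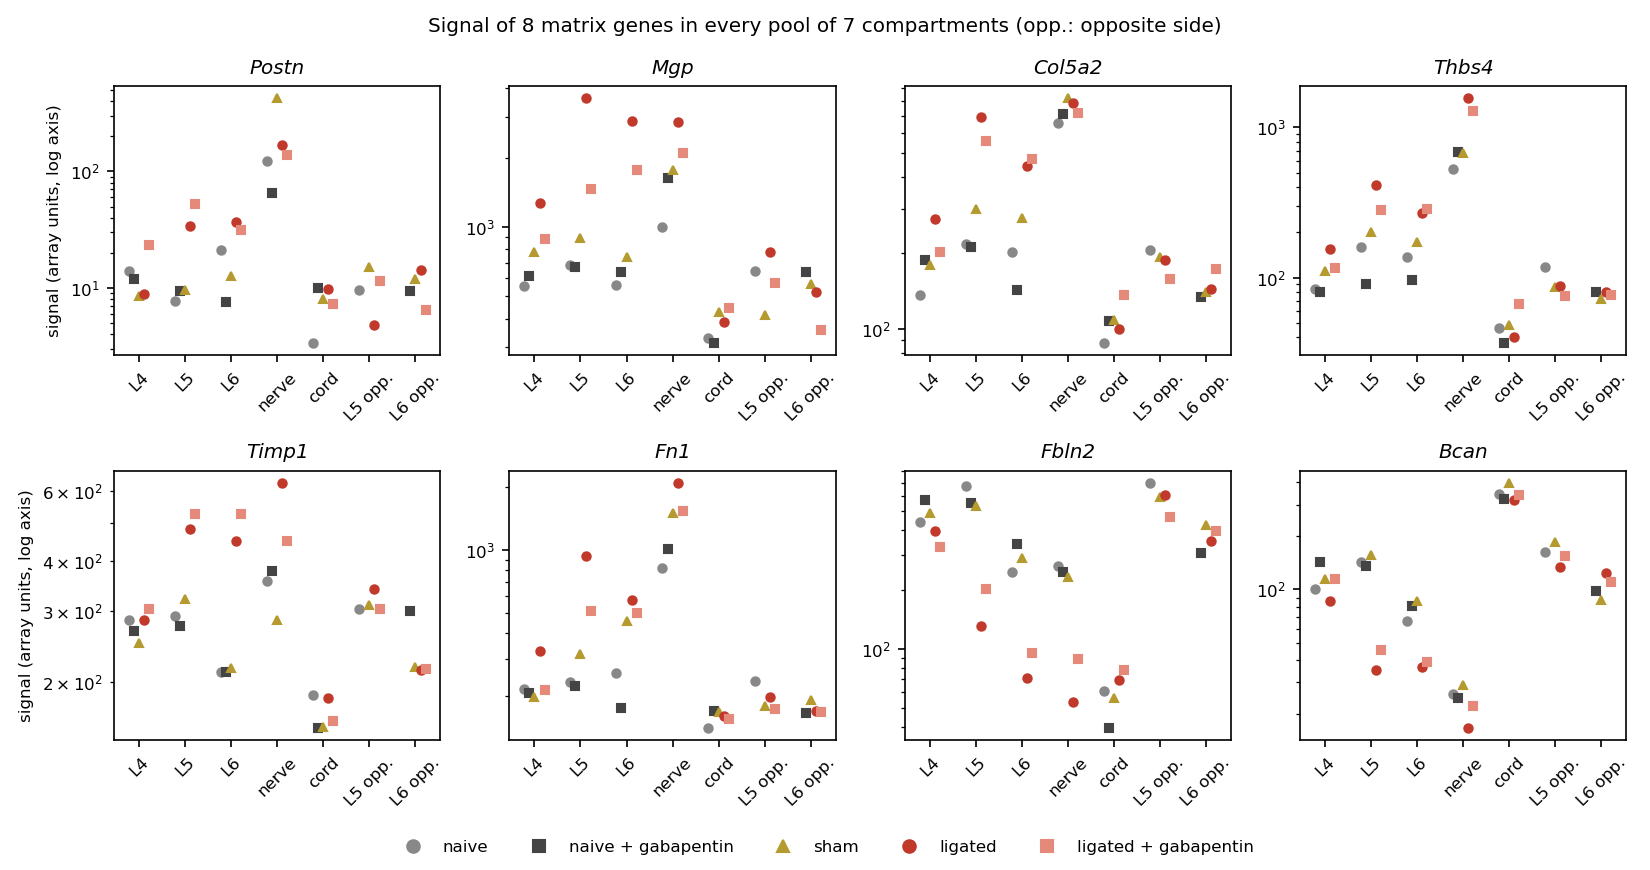
Signal of 8 matrix genes in every pool of 7 compartments, on a log axis. Each point is 1 pool of 4 to 6 rats; the ligated pools (red shades) stand above the unligated pools in L5 and L6 for Mgp, Col5a2, Thbs4, Timp1 and Fn1 and below them for Fbln2 and Bcan.

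Col5a2, Fbln2 and Bcan held their L5 call under every other setting. Postn held its call where it could be tested, but it dropped out when a ligated pool was left out. How far the Postn call rests on a single ligated pool was therefore not tested. These 4 genes are shown by the 150 bases before their start in RefSeq (rat build GRCr8), 2 that rose and then 2 that fell. Capitals mark matches on either strand to the TATA box TATAAA, the CCAAT box CCAAT and the GC box GGGCGG, which reads CCGCCC on the opposite strand. The motifs do not overlap each other here.
Postn, chr2:140677911-140678060, plus strand: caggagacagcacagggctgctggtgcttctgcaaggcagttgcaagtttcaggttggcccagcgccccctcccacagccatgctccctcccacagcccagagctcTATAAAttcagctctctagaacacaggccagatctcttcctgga
Col5a2, chr9:55090152-55090301, minus strand: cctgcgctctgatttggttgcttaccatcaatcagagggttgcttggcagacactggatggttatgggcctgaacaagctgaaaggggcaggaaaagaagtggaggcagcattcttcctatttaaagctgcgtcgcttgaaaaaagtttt
Fbln2, chr4:125261509-125261658, plus strand: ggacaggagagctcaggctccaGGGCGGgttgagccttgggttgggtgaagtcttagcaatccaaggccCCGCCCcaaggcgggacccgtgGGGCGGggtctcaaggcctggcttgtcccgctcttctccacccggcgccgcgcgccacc
Bcan, chr2:175765315-175765464, minus strand: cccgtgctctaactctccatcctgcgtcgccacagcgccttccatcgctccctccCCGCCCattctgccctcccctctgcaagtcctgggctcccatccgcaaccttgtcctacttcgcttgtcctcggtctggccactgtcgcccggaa
Postn held a TATAAA on the gene's own strand starting 44 bases before its start, Col5a2 none of the 3 motifs, Fbln2 3 copies of GGGCGG and Bcan 1. Of the 36 genes, 23 matched a promoter by symbol. A member was counted if any promoter under its symbol held the motif, while the share over all was taken per promoter. A gene with several promoters would have more ways to match, so the shares below are not strictly alike. TATAAA was found in 3 of the 23 (Mmp3, Ncan and Postn; 13% against 8.0% of all 33469 promoters of the same length), CCAAT in 2 (8.7% against 23.5%) and GGGCGG in 13 (56.5% against 26%). A match is a run of letters and does not show that a factor binds there.

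The L6 ganglion, whose spinal nerve was tied as well, had fewer calls. Of 34 members tested, 8 were called higher and 2 lower, where 4.76% of all genes were higher and 4.62% lower. The calls were 2 of 7 collagens higher (Col5a2, Col1a2), 3 of 14 glycoproteins higher (Mgp, Thbs4, Nid1) and 1 lower (Fbln2), 1 of 7 proteoglycans higher (Lum) and 1 lower (Bcan), and 2 of 6 proteases and inhibitors higher (Timp1, Mmp2). The median log2 change was 0.57 over the members and 0.01 over all genes. Col4a3 and Mmp9 were below the filter. The Gapdh ratio was 1.08 and 1.10 in ligated and 1.21 to 1.49 in unligated L6 pools, again without overlap, and its part was not tested.

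Mgp rose most in L6, from 557, 639 and 742 in naive, naive gabapentin and sham pools to 2879 and 1775 in ligated pools with vehicle and gabapentin. The log2 change was 1.81 (SE 0.23, adjusted p = 0.00461). Thbs4 gave 137, 96.3 and 172 without and 268 and 287 with ligation, a log2 change of 1.04 (SE 0.24, adjusted p = 0.037). Nid1 gave 163, 146 and 146 against 284 and 262, a log2 change of 0.82 (SE 0.16, adjusted p = 0.019). In all 3 glycoproteins the groups stood apart. The call in L6 was lost under 8 of 12 other settings for Thbs4, 6 for Nid1 and 1 for Mgp.

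Col5a2 gave 202, 143 and 274 without and 441 and 473 with ligation in L6, a log2 change of 1.17 (SE 0.26, adjusted p = 0.0319). Col1a2 gave 1708, 1588 and 1481 against 2284 and 2490, a log2 change of 0.58 (SE 0.14, adjusted p = 0.0447), and kept its call under only 2 of 12 other settings. Lum gave 184, 235 and 157 against 427 and 332, a log2 change of 0.97 (SE 0.21, adjusted p = 0.0319). Col5a2 and Lum each lost the L6 call under 7 of 12 other settings. These 3 genes all encode parts or partners of collagen fibrils.

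Timp1 and Mmp2, an inhibitor and a gelatinase, rose together in L6. Timp1 gave 211, 212 and 216 without and 450 and 524 with ligation, a log2 change of 1.17 (SE 0.15, adjusted p = 0.005). Mmp2 gave 97.9, 66.6 and 115 against 185 and 240, a log2 change of 1.16 (SE 0.25, adjusted p = 0.0291), although its other probe set changed by 0.20 and was not called. The call was lost under 7 of 12 other settings for Mmp2 and 1 for Timp1. The other 4 proteases and inhibitors tested were not called, with changes of 0.83 for Mmp3 (adjusted p = 0.0861), 0.54 for Timp2, 0.32 for Mmp14 and 0.23 for Timp3.

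Fbln2 and Bcan fell in L6 too. Fbln2 gave 245, 342 and 289 without and 71.4 and 95.6 with ligation, a log2 change of -1.75 (SE 0.21, adjusted p = 0.00351). Bcan gave 66.1, 80.8 and 85.6 against 36.9 and 38.8, a log2 change of -0.93 (SE 0.18, adjusted p = 0.0227). In both genes every ligated pool was below every unligated pool. The L6 call was lost under 4 of 12 other settings for Bcan and 1 for Fbln2.

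Postn in L6 gave 21.3, 7.52 and 12.6 without and 36.5 and 31.5 with ligation, a log2 change of 1.08 that was not called (SE 0.33, adjusted p = 0.0866). Dcn (0.98, adjusted p = 0.0633), Fn1 (0.95, adjusted p = 0.142), Fbn1 (0.88, adjusted p = 0.0745) and Vcan (0.75, adjusted p = 0.109) were not called either. Of the 12 members called higher in L5 and the 8 in L6, 5 were the same (Col5a2, Mgp, Thbs4, Nid1 and Timp1), and the 2 called lower were the same in both ganglia. The pools of L5 and L6 came from the same treatment groups of rats and are not independent. Without normalization no member was called in L6, and 86 probe sets in all, of which 27.9% were higher against 50.9% with quantiles. The count of 10 fell to 4 without the naive, the naive gabapentin or the ligated gabapentin pool and to 3 without the ligated vehicle pool, and it was 11 without the sham pool.

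In the sciatic nerve of the operated side, taken at mid-thigh, few members changed. Of 33 tested, 1 was called higher and 2 lower, where 2.04% of all genes were higher and 2.86% lower, so the members' share of higher calls was near that of all genes. The median log2 change was -0.0015 over the members and -0.01 over all genes. The Gapdh ratio was 7.38, 1.60 and 3.80 in naive, naive gabapentin and sham nerves. It was 1.92 and 1.61 in ligated nerves with vehicle and gabapentin, and its part in the nerve result was not tested. Thbs4 gave 530, 682 and 678 in naive, naive gabapentin and sham nerves and 1562 and 1281 in ligated nerves with vehicle and gabapentin. Its log2 change was 1.17 (SE 0.19, adjusted p = 0.018), and Thbs4 was the 1 member called higher in L5, L6 and nerve. Those 3 calls were lost under 6, 8 and 5 of 12 other settings in the same order.

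Fbln2 fell in the nerve from 265, 245 and 230.5 to 53.7 and 88.4, a log2 change of -1.77 (SE 0.23, adjusted p = 0.00808). It was the 1 member called lower in all 3 tissues. Spp1, osteopontin, a secreted phosphoprotein that binds integrins, gave 1883, 1696 and 1671 without and 798 and 984 with ligation, a log2 change of -0.98 (SE 0.17, adjusted p = 0.0239). In both genes the groups did not overlap. The nerve call was lost under 3 of 12 other settings for Fbln2 and 7 for Spp1. In L5 and L6 the Spp1 change was -0.04 and 0.37, with adjusted p of 0.886 and 0.642.

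The nerve's other members included some with apart groups and no call. Tnc, tenascin C, a glycoprotein of developing and healing tissue, gave 25.7, 22.6 and 32.6 without and 62.4 and 48.8 with ligation, a log2 change of 0.91 (adjusted p = 0.0615). Col4a1 gave 772, 859 and 789 against 483 and 511, a log2 change of -0.69 (adjusted p = 0.0579). Postn gave 123, 65.9 and 425 without and 168 and 138 with ligation, so that the sham nerve was above and the others around the ligated ones. Mgp (0.78, adjusted p = 0.185) and Timp1 (0.64, adjusted p = 0.159) were not called.

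The nerve count turned on single pools and on the scaling and covariate used. It was 5 without the sham pool, 0 without the ligated vehicle pool, 1 without the ligated gabapentin pool, and 2 without either naive pool. With the mean level of skeletal muscle markers as a covariate it was 0, and 5 probe sets in all were called. With 5 pools, a covariate leaves less from which to estimate the spread, and the ligated vehicle nerve was lowest in muscle markers. Muscle content and lost power therefore cannot be told apart as sources of the lost calls. The changes with that covariate were -1.34 for Fbln2, 0.91 for Thbs4 and -0.76 for Spp1, and over all 12 other settings they lay between -2.11 and -1.34, 0.91 and 1.31, and -1.19 and -0.76. With a common median as the scale, no member was called higher and 3 lower, and without normalization none was called. Of all probe sets called in nerve, 46.1% were higher with quantiles and 70.6% without normalization. Col1a2 lay so high on its arrays that quantile normalization gave 3 of 5 nerve pools the same value of 4412, and Col1a1 read 2675 in both naive pools.

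The change with ligation was compared between compartments in a test of the difference. Nerve and L5 differed for 3 members, 1 with a higher change in nerve and 2 with a lower one, where 1.39% of all genes were higher and 1.99% lower. The change of Bcan was higher in nerve by 1.35 (SE 0.24, adjusted p = 0.0243). The change of Col4a1 was lower in nerve by a log2 value of -1.32 (SE 0.22, adjusted p = 0.0198) and that of Col5a2 by -1.31 (SE 0.21, adjusted p = 0.0155). The call was lost under 5 of 8 other settings for Bcan, 4 for Col4a1 and 3 for Col5a2. Without the ligated vehicle pools or the ligated gabapentin pools none of these 3 was called, and 1 was called without the naive gabapentin pools. Of all probe sets called for this difference, 43.8% were higher in nerve with quantiles and 86.1% without normalization.

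L4 is the ganglion beside the injured ones, whose spinal nerve was left intact. L5 and L4 differed for 3 members, 1 with a higher change in L5 and 2 with a lower one, where 1.26% of all genes were higher and 2.16% lower. Fn1 changed more in L5 by 1.07 (SE 0.21, adjusted p = 0.0404), a call lost under 7 of 8 other settings. Bcan changed by -1.49 (SE 0.21, adjusted p = 0.0172) and Fbln2 by -1.35 (SE 0.28, adjusted p = 0.0482) relative to L4, and these calls were lost under 3 and 5 of the 8. In L4, Bcan gave 100, 142 and 114 without and 86.5 and 115 with ligation, and Fn1 gave 217, 207 and 197 against 327 and 214, with overlap in both. The count was 0 without the naive or the sham pools, 1 without the naive gabapentin or the ligated vehicle pools, and 1 with no filter on low signals. Of all probe sets called, 38.9% were higher with quantiles and 1.91% without normalization.

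No member was called in L4 itself. In that ganglion 0.0585% of all genes were called. An unadjusted limma p below 0.05 was found for 8 of 31 members and for 14.3% of all probe sets tested. Lox came closest, with 79.7, 55.2 and 79.0 without and 155 and 145 with ligation (log2 change 1.03, adjusted p = 0.0812). Fbln2 gave 439, 570 and 492 against 395 and 328, with groups apart and a log2 change of -0.46 that was not called. Without normalization 2 members were called higher in L4, where the median of all probe sets moved up by 0.49.

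On the opposite side and in the central nervous system no member was called by limma, with 2 unligated pools in the opposite L5 (naive and sham) and L6 (naive gabapentin and sham) ganglia. The share of all genes called was 0% in the spinal cord of the operated side, 0% in the opposite L4 ganglion, 0% in the opposite L5 ganglion, 0.0236% in the opposite L6 ganglion, 0% in the opposite spinal cord and 0% in brain. The members with an unadjusted p below 0.05 numbered 1 of 33, 1 of 31, 4 of 31, 3 of 31, 2 of 32 and 4 of 31 in the same order. Of all probe sets tested, 2.71%, 4.01%, 8.43%, 10.6%, 5.03% and 2.59% had such a p. Fbln2 in the opposite L5 ganglion gave 696 and 588 without and 606 and 469 with ligation, with overlap. Mgp there gave 641 and 417 against 778 and 572. In brain, Fbln2 gave 44.6, 25.5 and 34.1 without and 9.14 and 7.18 with ligation, a log2 change of -1.61 that was not called (adjusted p = 1.00). The opposite nerve had 1 ligated pool and was not tested.

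Other genes of the matrix pathway, from lists of further collagens and laminins, collagen processing, other proteases, matrix receptors and growth factor signals, were counted the same way. The shares of all genes called higher, against which these counts stand, were 6.79% in L5, 4.76% in L6 and 2.04% in nerve, and 9.46%, 4.62% and 2.86% were called lower. These lists too were chosen with earlier results of the data known, so the contrast is no independent test. Of further collagens and laminins, 6 of 13 rose in L5, among them Col18a1 by 1.11 (adjusted p = 0.00379), Hspg2, the basement membrane proteoglycan perlecan, by 1.05 (adjusted p = 0.014) and Col6a2 by 1.03 (adjusted p = 0.00841). In L6, 2 of 13 rose, Col18a1 by 1.07 and Lama2 by 0.97. In nerve, Col18a1 rose by 1.14 and Col2a1, the cartilage collagen, fell by 2.98 on the log2 scale (adjusted p = 0.00641). Of the collagen processing list 2 of 14 rose in L5, Loxl1, a cross-linking enzyme, by 0.97 and Serpinh1, a collagen chaperone, by 0.74. None of 14 changed in L6 and Adamts2, which trims procollagen, fell by 1.06 in nerve, 1 of 14.

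Further proteases and inhibitors included the lysosomal cathepsins and plasminogen activators. In L5, 6 of 21 rose and 1 fell, led by the lysosomal cathepsins Ctss by 1.81 (adjusted p = 0.00629) and Ctsk by 1.48 (adjusted p = 0.00579) and by Mmp16 by 1.08, while Ctsb fell by 0.41 on the log2 scale. In L6, 5 of 20 rose, Ctss by 2.26, Mmp16 by 1.53 and Ctsk by 1.42 first. In nerve, 3 of 20 rose: A2m, a broad protease inhibitor, by 1.70, Plat, tissue plasminogen activator, by 1.49 and Mmp17 by 1.39.

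Of the matrix receptors, 5 of 19 rose in L5, first the integrins Itga1 by 1.04 and Itga6 by 0.89 and the hyaluronan receptor Cd44 by 0.73. In L6, 3 of 19 rose, Itga1 by 0.94, Itga6 by 0.94 and Sdc4 by 0.91. In nerve, 3 of 18 rose and 1 fell, with Gpc1, a glypican, up by 2.28 (adjusted p = 0.00251), Itga7 by 1.14 and Itgb1 by 1.00, and Itgb4 down by -0.78. Of the transforming growth factor beta and CCN list, 7 of 15 rose in L5, Tgfbi by 1.48, Ccn1 by 1.27 and Ltbp1 by 1.19 first, 3 of 15 in L6 (Tgfbi by 1.57, Tgfbr1 by 1.16, Ltbp1 by 1.11), and none of 16 in nerve.

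Levels of cell type markers moved with ligation beside these genes, and their part in the results was not tested. Muscle alone was a covariate, and in nerve its part could not be told apart from the lost power of that fit. None of the 84 marker genes on the arrays is a member of the matrix list, and none was at 0 in a pool. Over all genes tested, 6.79% were called higher and 9.46% lower in L5, and 4.76% and 4.62% in L6. In L5, 8 of 10 macrophage markers tested rose, with a mean log2 signal of 6.79 to 6.93 in ligated and 5.64 to 6.05 in unligated pools. In L6, 8 of 11 rose, with 6.52 to 6.94 against 5.33 to 5.56. Fibroblast markers rose in 3 and fell in 1 of 10 in L5 (8.43 to 8.64 against 8.0 to 8.15) and likewise in L6 (8.16 to 8.28 against 7.78 to 7.88). The fibroblast list holds Thy1, whose mean signal in unligated rats was 3498 in ganglia and 192 in nerve. That is the direction of the neuronal markers, so the list is not purely one of fibroblasts. Neuronal markers fell in 5 of 10 in L5 (9.94 to 10.15 against 10.62 to 10.72) and 5 of 11 in L6 (9.43 to 9.65 against 10.35 to 10.48). In pooled tissue, more cells of a type and more RNA per cell cannot be told apart.

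Muscle and fat markers varied between nerve pools. The mean log2 of skeletal muscle markers was 9.25 in naive, 8.41 in naive gabapentin, 8.18 in sham, 5.44 in ligated vehicle and 8.17 in ligated gabapentin nerves, and limma called 0 of 16, with 11 at an unadjusted p below 0.05. Of all probe sets tested in nerve, 19.7% had such a p. Adipocyte markers were 6.85 and 7.12 in ligated and 7.74 to 8.23 in unligated nerves, with 3 of 8 called lower. Schwann cell markers were 9.91 to 9.97 in ligated and 10.30 to 10.56 in unligated nerves, with 1 of 6 called lower. Over all genes tested in nerve, 2.86% were called lower. In L5, muscle markers were 8.64 in the ligated gabapentin and 6.92 in the ligated vehicle pool, and 5.23 to 7.78 in the unligated pools, and limma called 0 of 17, with 4 at an unadjusted p below 0.05. Of all probe sets tested in L5, 32.0% had such a p. In L6, they were 7.94 in the naive pool and at most 5.44 in the others.

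**Figure D3:**
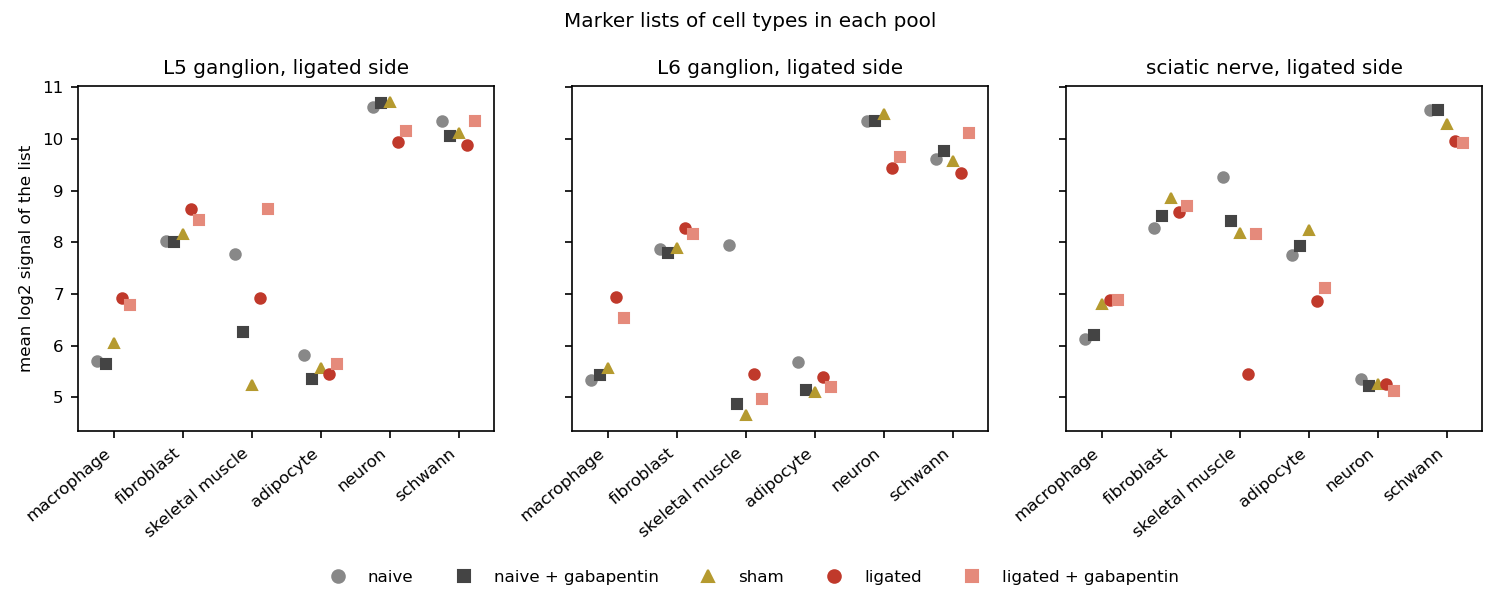
Mean log2 signal of 6 marker lists in each pool of the L5 ganglion, the L6 ganglion and the sciatic nerve. Macrophage markers are higher in both ligated pools of L5 and L6 (red shades), and muscle markers differ between single pools, with the ligated vehicle nerve at 5.44 and the naive nerve at 9.25.

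The tissues of unligated rats were compared with all arrays on 1 scale, over 3 treatments in each of 4 tissues. Most matrix genes, 25 of 36, had their highest mean signal in the sciatic nerve. Of 35 members tested, 24 were higher and 3 lower in nerve than in ganglia, where 28.8% of all genes were higher and 22.5% lower, and the median log2 difference was 1.50 over the members and 0.04 over all genes. Without normalization 17.8% of all probe sets called were higher in nerve, against 52.6% with quantiles. In all, 7 of 8 collagens, 10 of 14 glycoproteins, 4 of 7 proteoglycans and 3 of 6 proteases and inhibitors were higher in nerve. By mean signal, 3 of the 36 genes were highest in ganglia, 3 in cord and 5 in brain, and 23 fell in the order nerve, ganglia, cord, brain. For Col4a3, Tnc, Mmp3 and Mmp9 (highest in brain), Ncan (ganglia) and Lox (cord), tissues next in order overlapped. Their highest mean was only 1.28 to 1.71 times the lowest, so their rank is not firm. That ratio was 1.07 for Fmod, 1 of the 23. Neither the tissue with the highest mean nor the order was counted over all genes.

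Markers of other cells differed between these tissues too, where 28.8% of all genes were called higher and 22.5% lower in nerve than in ganglia. Of skeletal muscle markers 16 of 17 were higher in nerve than in ganglia, of adipocyte markers 6 of 8, of fibroblast markers 6 of 10 (with 1 lower), of macrophage markers 10 of 12, of endothelial and mural markers 9 of 10 and of Schwann cell markers 5 of 6, and 11 of 11 neuronal markers were lower. Thy1, on the fibroblast list, had a mean of 192 in nerve and 3498 in ganglia, the direction of the neuronal markers. Ckm, the muscle creatine kinase, had a mean signal of 2991 ± 2189 (SD, n = 3) in nerve and 190.2 ± 232 in ganglia. The Gapdh ratio was 1.60 to 7.38 (median 3.05) in unligated nerve and 1.13 to 3.16 (median 1.27) in ganglia. The part of the markers and of this ratio in the tissue differences was not tested.

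Postn was higher in nerve than in ganglia. Its signals were 237, 151 and 587 in naive, naive gabapentin and sham nerve and 11.5, 9.46 and 10.3 in ganglia, where 15 of 16 pools were below the filter. With those 15 pools set to the filter level nerve was at least 10.5-fold higher (adjusted p = 1.34e-06 for the fit). In cord they were 4.15 to 10.3 and in brain 4.40 to 11.5, and the differences between ganglia, cord and brain were within their spread. Mgp gave 1128, 1986 and 1794 in nerve, 503 to 660 in ganglia, 329 to 384 in cord and 90.1 to 127 in brain, so that the 4 tissues stood apart in that order. Its log2 differences were 1.50 (nerve against ganglia, adjusted p = 1.35e-05), 0.64 (ganglia against cord, adjusted p = 0.0182) and -1.68 (brain against cord, adjusted p = 1.99e-05).

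**Figure D4:**
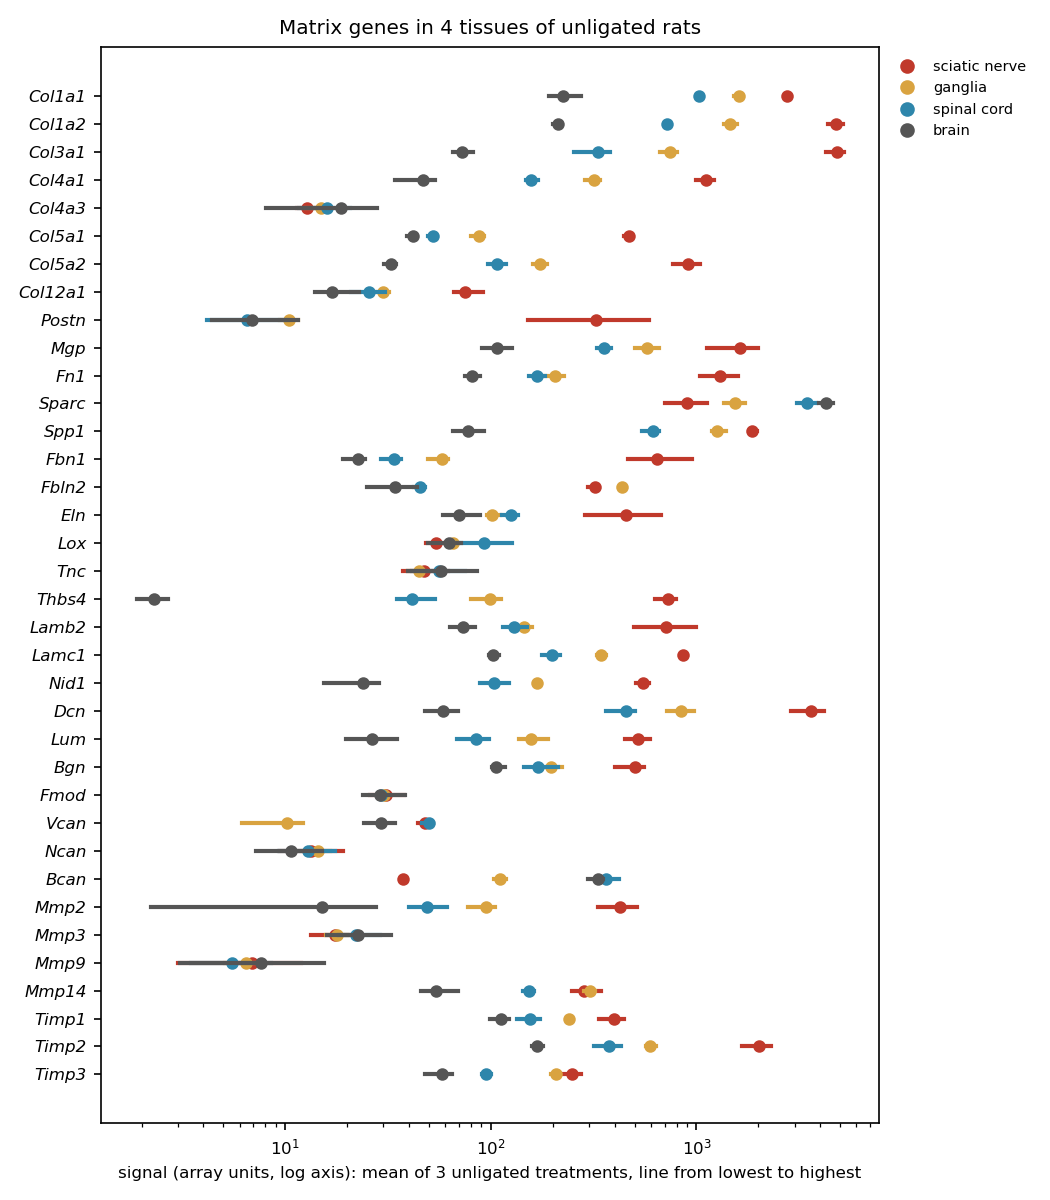
Signal of the 36 matrix genes in 4 tissues of unligated rats on a log axis; points are means of 3 treatments and lines run from the lowest to the highest treatment. For 23 genes the means fall in the order nerve, ganglia, cord, brain, and Sparc and Bcan are lowest in nerve.

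Among the collagens, nerve exceeded ganglia most for Col3a1, with 4256, 5068 and 5200.5 in nerve and 668 to 800 in ganglia, a log2 difference of 2.74 (SE 0.15). Col5a1 (446 to 488 against 80.4 to 92.6, difference 2.37), Col5a2 (765 to 1036 against 161 to 187, difference 2.37) and Col4a1 (992 to 1212 against 286 to 341, difference 1.82) followed. Col4a3 did not differ beyond its spread between any tissues, at 11.4 to 14.1 in nerve and 8.08 to 28.1 in brain.

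Of the glycoproteins after Postn, Fbn1, the fibrillin of microfibrils, gave 505, 464 and 952 in nerve and 49.2 to 62.2 in ganglia, a log2 difference of 3.32 (SE 0.22). Thbs4 gave 629, 795 and 750 in nerve, 80.3 to 112 in ganglia, 34.8 to 53.5 in cord and 1.89 to 2.69 in brain, and the difference between nerve and ganglia was 2.86 (SE 0.16). Fn1 gave 1041 to 1597 in nerve and 180 to 226 in ganglia, a difference of 2.67 (SE 0.14). Every nerve value was above every ganglion value in these 3 genes.

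Dcn was the proteoglycan with the highest nerve value against ganglia, at 2869.8, 4166 and 3822 in nerve and 722 to 974 in ganglia (log2 difference 2.10, SE 0.18). Lum differed by 1.71 and Bgn by 1.32, and Vcan, below the filter in all ganglia, was at least 2.07-fold higher in nerve. Mmp2 gave 332 to 513 in nerve and 77.8 to 105 in ganglia, a difference of 2.11 (SE 0.38), Timp2 differed by 1.76 (SE 0.13) and Timp1 by 0.70 (SE 0.13). In nerve, each of the 4 member groups thus had genes above their level in ganglia.

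Lower in nerve than in ganglia were 3 members. Bcan gave 36.8 to 38.0 in nerve, 104 to 118 in ganglia, 334 to 422 in cord and 295 to 350 in brain, with a nerve difference of -1.41 (SE 0.11). Sparc, which encodes a collagen-binding protein, gave 701 to 1131 in nerve, 1365 to 1715 in ganglia, 3084.5 to 3820 in cord and 3951 to 4630.1 in brain, a nerve difference of -0.76 (SE 0.16). Fbln2 gave 295 to 335 in nerve, 422 to 457 in ganglia, 42.2 to 48.0 in cord and 25.0 to 43.6 in brain, a nerve difference of -0.43 (SE 0.15). The call of Fbln2 was lost under 4 of 9 other settings and that of Sparc with a common median, while without normalization 6 members were called lower.

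Ganglia exceeded the spinal cord in 19 of 35 members and were below it in 3, where 16% of all genes were higher and 13.7% lower. Of all probe sets called, 51.6% were higher in ganglia with quantiles, 62.6% with a common median and 37.9% without normalization. The highest differences were those of Fbln2 at 3.14 (SE 0.15), Thbs4 at 1.14 (SE 0.16), Col3a1 at 1.12 (SE 0.15) and Timp3 at 1.10 (SE 0.13). Col1a2 differed by 1.02, Col4a1 by 0.98, Spp1 by 0.94 and Mmp14 by 0.92. The cord was higher for Vcan, with 46.1 to 52.5 against 6.16 to 12.2 in ganglia (at least 2.18-fold), and for Bcan (-1.69, SE 0.11) and Sparc (-1.20, SE 0.16).

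Brain was below the cord in 22 of 35 members and above it in none, where 10.2% of all genes were higher and 12.2% lower in brain. Of all probe sets called, 48.5% were higher in brain with quantiles and 25.7% without normalization. Spp1 fell from 542 to 661 in cord to 65.2 to 92.6 in brain, a log2 difference of -2.90 (SE 0.14). Dcn differed by -2.82, Col1a1 by -2.18, Col3a1 by -2.10 and Nid1 by -1.88. Thbs4, below the filter in every brain pool, was at least 1.78-fold higher in cord. Bcan (-0.13, adjusted p = 0.486), Sparc (0.31, adjusted p = 0.214), Tnc and Ncan did not differ beyond their spread. Ncan, neurocan, read 7.17 to 15.1 in brain and 9.29 to 17.4 in cord. Its mean was 10.6 in brain, 12.9 in cord, 14.4 in ganglia and 13.3 in nerve. Signals this low are near background, so the lack of a difference says little about Ncan.

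Gabapentin was tested against vehicle with ligation as a covariate, and no member was called in L5, in nerve or over the compartments, where 0%, 0% and 0% of all genes were called by limma. In L5, 11 of 34 members had an unadjusted p below 0.05, in nerve 0 of 33 and over compartments 4 of 36. Of all probe sets tested, 3.77%, 2.76% and 2.52% had such a p in the same order. In L5, 24 of 34 members were lower with the drug, with a median log2 change of -0.20 over the members and 0.00 over all genes. Thbs4 changed by -0.77 (SE 0.17), Mgp by -0.69 (SE 0.26) and Fn1 by -0.53 (SE 0.20), all with adjusted p of 0.99. Each treatment is 1 pool, so a drug effect and the difference between pools cannot be told apart.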

How the data were processed

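RNA pools of 5 treatments and 11 compartments were hybridised to 3 Affymetrix rat arrays (A, B and C), 52 pools and 156 arrays in all. The deposited values are linear signal intensities from MAS5, per the submitters' processing notes, and the array medians differed between pools. No 2 arrays were identical, the array of each column was known for every column (0 columns of no sample), and the correlation between arrays within a compartment ran from 0.914 to 0.975.

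Of 26379 probe sets, 177 controls were left out, 18178 had 1 gene symbol, 391 several and 7633 none, and 18122 symbols were brought up to date through RefSeq. Signals were quantile normalized within each array type and compartment (over all compartments for tissue comparisons). They were put on the log2 scale after adding a pseudocount, the 20th percentile of the array type. Probe sets above the 40th percentile of their array in at least 2 pools were fitted with limma 3.58.1 in R 4.3.3 (lmFit and eBayes, two-sided, Benjamini-Hochberg over all kept probe sets). Compartment differences were fitted on differences between pools of the same treatment. Figures were drawn with Python 3.11.15 and matplotlib 3.10.9. Promoter sequences came from RefSeq (GRCr8). The number of pools limits the precision, and whether a difference between pools is biological or technical is not separated by these data.

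The members and gene lists were chosen with earlier results of these data known. The genes given in full were Postn, Mgp, up to 4 rises and 4 falls of each member group in each comparison by size among those past the threshold, and members past the threshold for a difference. Of each pathway list, up to 3 genes a direction and comparison were named. Alternatives were the deposited scaling, a common median, 4 times the pseudocount, no filter, 1 shared spread, muscle markers as a covariate, the mean over a gene's probe sets, treatment as a block, the operated side alone, and leaving out each pool. The opposite nerve had 1 ligated pool and was left out of the tests.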

Additional observations from a re-analysis of the deposited data

Results flagged for a closer look

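The log2 change with ligation differed between compartments for 5 members, each by limma's test of the difference itself. The change of Col4a1 (-1.32) and Col5a2 (-1.31) was lower in the sciatic nerve than in the L5 ganglion, and that of Bcan (1.35) was higher, and these calls were lost under 4, 3 and 5 of 8 other settings. Against the L4 ganglion, whose nerve was left intact, the change in L5 was higher for Fn1 (1.07, lost under 7 of 8 settings) and lower for Fbln2 (-1.35, lost under 5) and Bcan (-1.49, lost under 3). The nerve pools also differed in muscle markers, whose part in these differences was not tested.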

How the results depend on the processing

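The calls of the main fits gave 1009 values under other settings, and members first called under another setting are not among them. Of these, 838 kept their direction and the call. Calls between tissues were kept more often than calls with ligation. Without the naive pools, 26 of 27 calls between nerve and ganglia were kept, 9 of 14 in L5 and 4 of 10 in L6. The direction held but the call was lost in 170 of the 1009, and 1 reversed: Col4a1 in L5 changed by -0.22 at the deposited scaling. At that scaling the count of members called was 2 in L4 (main count 0), 0 in L6 (10), 0 in nerve (3) and 2 in the opposite L6 ganglion (0). With a common median it was 8 in L5 (14). With no filter it was 5 in L6 and 1 for L5 minus L4 (3). With 1 shared spread it was 16 in L6 and 7 in nerve, with muscle markers as a covariate 5 in L6 and 0 in nerve, and with the mean over probe sets 5 in nerve. Leaving out 1 pool, or the pools of 1 treatment, gave 5 to 12 members in L5, 3 to 11 in L6, 0 to 5 in nerve, 0 to 2 for nerve minus L5 (3) and 0 to 3 for L5 minus L4. Leaving out the naive gabapentin pools cut the probe sets called from 5430 to 3265 between ganglia and cord and from 4099 to 2085 between brain and cord. The counts of members between tissues stayed within 1.5 times of the main count under every setting run. The cause of these shifts was not tested, except that leaving out a pool leaves fewer samples and a covariate leaves less to estimate the spread from.

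Over all probe sets, the count called changed from 7 to 2926 in L4 and from 1451 to 86 in L6 at the deposited scaling, from 12 to 1227 in the opposite L6 ganglion, from 562 to 1267 for nerve minus L5 and from 545 to 4461 for L5 minus L4. With no filter it was 946 in L6, 309 for nerve minus L5 and 217 for L5 minus L4. With 1 shared spread it was 2798 in L6 and 2348 in nerve (824), and with muscle markers as a covariate 933 in L6 and 5 in nerve. At the deposited scaling the median of all probe sets moved by 0.49 in L4, -0.24 in L5, -0.28 in L6, 0.33 in nerve, -0.52 in the opposite L6 ganglion, -0.50 for nerve against ganglia, 0.56 for nerve minus L5 and -0.80 for L5 minus L4. With 2 ligated pools, leaving 1 out leaves a lone pool, which is assumed to vary like the other group. Ligated and unligated pools are different treatments, so treatment could not be a block there. With treatment as a block in the tissue fits, 27 members were called between nerve and ganglia, 22 between ganglia and cord and 22 between brain and cord, the same counts as without it. Signal over background limits Postn in unligated ganglia, and Mmp9 and Ncan, which were below the filter in L5.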
